A study of Drosophila melanogaster with 22 samples.

Results

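The genes described here are 7 Drosophila melanogaster genes for proteins that bind microtubules or steer what binds them: Eb1, Lis-1, shot, Jupiter, tau, chb and futsch. They were picked by name, with earlier results of these data known, out of 13853 genes with a read in a nanopore library, and all 7 were found by their FlyBase identifiers. Their gene-level calls are therefore a description of chosen genes. All animals were Oregon R larvae, a wild-type strain carrying no added allele, and the samples were circulating hemocytes, called blood here, or dissected lymph glands, the larval organs in which blood cells form. Groups of nanopore cDNA libraries were lymph glands of wasp-infested larvae (n = 3) and of normal larvae (n = 3) at 96 h after egg laying, blood of infested (n = 3) and normal (n = 2) larvae at 96 h, and blood of infested (n = 3) and normal (n = 2) larvae at 120 h. Infested larvae were taken 24 h after infestation at 96 h of age and 48 h after it at 120 h. In infested samples age and time since infestation therefore cannot be told apart, and differences with age below stand for both. A single library of normal lymph glands at 120 h was made with another kit, and 5 Illumina libraries covered 1 condition each.

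A microtubule is a hollow polymer of tubulin that grows and shrinks mainly at its plus end and serves as a track for dynein and kinesin motors. End-binding proteins sit on the growing plus end and recruit other factors there, CLASP proteins such as chb slow the loss of tubulin from it, and spectraplakins such as shot tie microtubules to the actin cortex. In the fly, wasp parasitism makes the blood system produce lamellocytes, large flat cells rich in actin and microtubules that wrap the parasite egg.

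The 16 nanopore libraries of the common kit held 356632 gene counts (infested lymph gland replicate 2) to 2079764 (normal 120 h blood replicate 2), so members with few reads, tau, chb, Lis-1 and futsch, were measured with less precision than Eb1 or Jupiter. Lamellocyte markers (5 of 6 listed genes matched, atilla and PPO3 among them) summed to 717 to 981 CPM (read counts scaled to library size) in infested and 12.8 to 22.8 CPM in normal lymph glands, to 2384 to 2450 CPM in infested and 61.6 to 74.8 CPM in normal 96 h blood, and to 4448 to 6823 CPM in infested and 51.1 to 58.2 CPM in normal 120 h blood. These sums were higher with infestation in each setting, both where members rose and where they did not. Members that did not rise include chb in glands and 96 h blood and tau in glands. The part of lamellocytes in the levels of the members was not tested. Midgut markers summed to 101 to 1953 CPM in infested and 0 to 2.40 CPM in normal glands and to 2089 to 3397 CPM in infested and 196 to 202 CPM in normal 96 h blood, but to 18.0 to 49.7 CPM in infested and 351 to 368 CPM in normal 120 h blood. Fat body markers summed to 1271 to 1758 CPM in infested and 59.9 to 808 CPM in normal 96 h blood, and at 120 h to 3372 CPM in replicate 1 and 457 and 476 CPM in replicates 2 and 3 of infested blood, against 2197 and 2691 CPM in normal blood. Plasmatocyte markers, which define most circulating hemocytes, were detected in every blood library, at 2408 to 5411 CPM in infested and 5200 to 6628 CPM in normal blood. In bulk samples, more cells of a type and more RNA per cell cannot be told apart. Muscle genes summed to 2559 CPM in replicate 1 and to 859 and 965 CPM in replicates 2 and 3 of infested 96 h blood, against 3010 and 2559 CPM in normal 96 h blood, and to 1270 CPM in replicate 1 and 432 and 466 CPM in replicates 2 and 3 of infested 120 h blood, against 415 and 451 CPM in normal 120 h blood. The Illumina library of normal 120 h blood stood apart: the male germline tubulin gene betaTub85D was at 411 CPM there and at 0.0609 to 71.0 CPM in the other 4 Illumina libraries, and the ecdysone-induced gene Eip78C was at 111 CPM against 1.10 to 3.47 CPM (both chosen after their values were seen).

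Eb1 (FBgn0027066) lies on chromosome 2R, positions 6749227 to 6756300 of the plus strand in the Ensembl annotation of BDGP6.54, and encodes the end-binding protein that tracks growing plus ends. The 3 infested 120 h blood libraries had 978, 1152 and 1176 TMM-scaled CPM, against 214 and 182 CPM in the 2 normal ones. The infested 96 h blood libraries had 333, 367 and 379 CPM, against 162 and 182 CPM in normal blood of that age. Infested lymph glands had 252, 213 and 257 CPM, against 156, 146 and 159 CPM in normal glands. In all 3 settings every infested library lay above every normal one, and among infested samples blood at 120 h was far above the rest.

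Mean Eb1 levels were 1102 ± 108 CPM in infested and 197.9 ± 22.8 CPM in normal 120 h blood (SD), a log2 fold change of 2.47 ± 0.16 (SE) or 5.54-fold (adjusted p = 6.24e-08, edgeR quasi-likelihood test, Benjamini-Hochberg over 7076 genes). In 96 h blood they were 359.6 ± 23.5 and 172 ± 14.2 CPM, a log2 fold change of 1.06 ± 0.16 (adjusted p = 7.78e-04, edgeR). In lymph glands they were 241 ± 24.0 and 154 ± 6.62 CPM, a log2 fold change of 0.66 ± 0.13 (adjusted p = 0.00836, edgeR). With replicates 2 and 3 of each blood group summed into 1 sample, which leaves 1 normal blood sample per age, the call was lost in 96 h blood (adjusted p = 0.124, edgeR) and in lymph glands (adjusted p = 0.0717, edgeR). The effect of infestation on Eb1 in blood was larger at 120 h than at 96 h by 1.41 ± 0.21 on the log2 scale (adjusted p = 0.00391, edgeR interaction contrast), and this call was lost without replicate 3 of normal 96 h blood (adjusted p = 0.0533, edgeR). The difference of the effect between blood and lymph gland at 96 h was 0.40 ± 0.20 and did not pass the test (adjusted p = 0.688, edgeR).

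**Figure D1:**
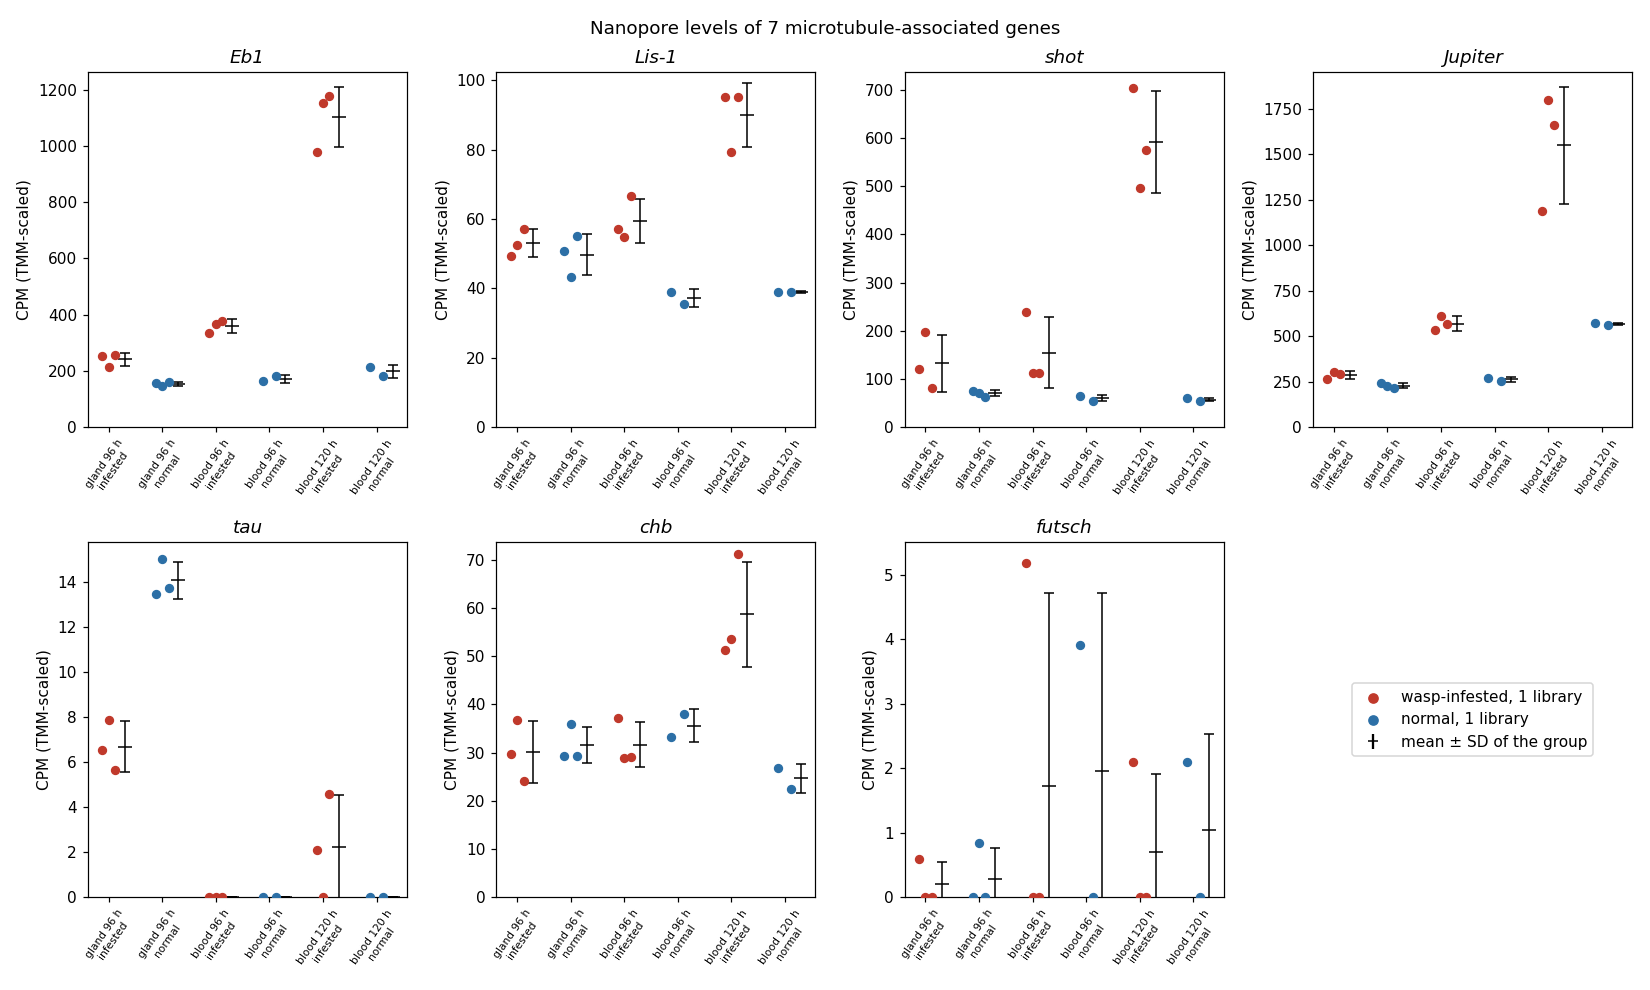
TMM-scaled CPM (y axis, linear from 0) of the 7 genes in each nanopore library of the common kit, by group (x axis), infested in red and normal in blue, with the mean ± SD in black. Eb1, shot, Jupiter, Lis-1 and chb had their highest mean in infested 120 h blood, while tau had its highest mean, 14.1 CPM, in normal lymph glands.

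The shot gene (FBgn0013733, 2R, 13864237 to 13942110, minus strand) encodes Short stop, the spectraplakin that links microtubules to actin. Infested 120 h blood had 705, 496 and 575 CPM, against 59.3 and 54.1 CPM in normal blood. Infested 96 h blood had 239, 113 and 112 CPM, against 64.4 and 55.01 CPM in normal blood, so replicate 1 stood well above the other infested libraries of its group. Replicate 1 of infested blood was the highest in shot and in muscle sum at both ages, and normal blood had no replicate 1. The part of muscle RNA in the levels of shot was not tested. Infested lymph glands had 119.9, 197 and 80.6 CPM, against 75.4, 71.0 and 63.2 CPM in normal glands. No infested library overlapped the normal ones of its tissue and age, but the infested 96 h libraries differed widely among themselves.

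The log2 fold change of shot was 3.37 ± 0.39 in 120 h blood, or 10.3-fold (adjusted p = 1.81e-05, edgeR). In 96 h blood it was 1.39 ± 0.38 (adjusted p = 0.0513, edgeR) and in lymph glands 0.86 ± 0.32 (adjusted p = 0.163, edgeR), both short of the threshold. The gland difference passed without the filter on low counts (adjusted p = 0.00444, edgeR) and without replicate 3 of infested glands (adjusted p = 0.0488, edgeR). DESeq2 put the 96 h blood difference past the threshold (adjusted p = 0.0176). Over its alternatives that adjusted p ran between 5.84e-06 and 0.328. From 96 h to 120 h shot rose in infested blood by 1.93 ± 0.30 (adjusted p = 3.86e-04, edgeR), and in normal blood the difference was -0.06 ± 0.43 (adjusted p = 0.990, edgeR). The difference of the infestation effect between the ages was 1.99 ± 0.52 (adjusted p = 0.0672, edgeR), and without replicate 1 of infested 96 h blood it was 2.45 (adjusted p = 0.00963, edgeR). With the replicate number as a block it was 2.07 and also passed (adjusted p = 0.0275, edgeR).

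Lis-1 (FBgn0015754, 2R, 16178826 to 16185103, plus strand), which encodes a regulator that keeps dynein engaged with microtubules, moved less. Infested 120 h blood had 95.3, 79.2 and 95.3 CPM, against 38.8 and 39.1 CPM in normal blood, without overlap. Infested 96 h blood had 57.0, 54.7 and 66.7 CPM, against 39.0 and 35.4 CPM in normal blood, while lymph glands of infested larvae, at 49.2, 52.6 and 57.2 CPM, overlapped those of normal larvae, at 50.8, 43.4 and 54.97 CPM. The log2 fold change was 1.20 ± 0.17 in 120 h blood, or 2.30-fold (adjusted p = 1.57e-04, edgeR). It was 0.67 ± 0.19 in 96 h blood (adjusted p = 0.0613, edgeR) and 0.09 ± 0.15 in lymph glands (adjusted p = 0.846, edgeR), neither past the threshold.

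Jupiter (FBgn0051363, 3R, 11590386 to 11619906, minus strand) encodes a protein that binds along microtubules. Infested 120 h blood had 1187, 1800.0 and 1662 CPM, against 572 and 562 CPM in normal blood. Infested 96 h blood had 531, 612 and 564 CPM, against 271 and 253 CPM in normal blood. Infested lymph glands had 262, 303 and 291 CPM, against 244, 224 and 214 CPM in normal glands. Infested libraries were above normal ones in each setting, and normal blood of 120 h was as high as infested blood of 96 h.

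Jupiter rose by 1.45 ± 0.18 on the log2 scale in infested 120 h blood (adjusted p = 3.33e-05, edgeR) and by 1.12 ± 0.18 in infested 96 h blood (adjusted p = 0.00148, edgeR), the 96 h call being lost with blood replicates 2 and 3 summed (adjusted p = 0.166, edgeR). In lymph glands the difference was 0.32 ± 0.16 (adjusted p = 0.311, edgeR). Jupiter was also the single member that rose with age in normal blood, by 1.12 ± 0.19 from 96 h to 120 h (adjusted p = 0.00311, edgeR), although that call was lost without replicate 3 of normal 96 h blood (adjusted p = 0.0569, edgeR). Marker sums also differed with age in normal blood: fat body genes were at 2197 to 2691 CPM at 120 h and 59.9 to 808 CPM at 96 h, muscle genes at 415 to 451 and 2559 to 3010 CPM, and crystal cell genes at 4230 to 4234 and 8573 to 9016 CPM. Their part in the rise of Jupiter was not tested. The infestation effect on Jupiter in blood differed between ages by 0.33 ± 0.24 (adjusted p = 0.608, edgeR) and between blood and gland by 0.80 ± 0.24 (adjusted p = 0.255, edgeR). With both blood libraries numbered 1 left out, an alternative chosen after seeing the data, the difference between tissues was 0.88 (adjusted p = 0.0348, edgeR).

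The chb gene (FBgn0021760, 3L, 21172853 to 21183278, plus strand) encodes the fly CLASP, which stabilises microtubules near their plus ends. AsnS lies inside it on the same strand, and whether the authors' counting kept their reads apart is not given in the sources used here. Infested 120 h blood had 51.3, 53.5 and 71.2 CPM, against 26.8 and 22.5 CPM in normal blood. At 96 h the groups overlapped, with 37.1, 28.8 and 29.0 CPM in infested and 33.2 and 37.98 CPM in normal blood. Lymph glands overlapped as well, at 29.7, 36.8 and 24.0 CPM in infested and 29.4, 35.9 and 29.3 CPM in normal larvae.

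The log2 fold change of chb was 1.21 ± 0.23 in 120 h blood (adjusted p = 0.00168, edgeR; 0.0681 with blood replicates 2 and 3 summed), -0.17 ± 0.25 in 96 h blood (adjusted p = 0.781, edgeR) and -0.13 ± 0.21 in lymph glands (adjusted p = 0.853, edgeR). The difference between the ages was 1.39 ± 0.34 (adjusted p = 0.0492, edgeR), at the edge of the threshold. With the replicate number as a block it missed the threshold (adjusted p = 0.0537, edgeR), DESeq2 gave it an adjusted p of 0.0865, and it missed the threshold in 8 of the 10 fits that left out 1 library.

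The tau gene (FBgn0266579, 3R, 27639886 to 27656996, minus strand), known for its product on neuronal microtubules, went the other way between tissues. Its reads numbered 11, 3 and 8 in infested and 17, 18 and 15 in normal lymph glands, or 6.53, 7.89 and 5.65 CPM in infested and 13.5, 15.03 and 13.7 CPM in normal glands. No tau read was counted in any 96 h blood library or in normal 120 h blood, and infested 120 h blood had 2, 0 and 4 reads. Gland libraries thus held tau reads throughout, and those of infested larvae lay below those of normal larvae without overlap. The gland difference, -1.12 ± 0.62 on the log2 scale, did not pass the test (adjusted p = 0.406, edgeR). Marker sums of the resident blood cells were also lower in infested glands, at 113 to 292 CPM against 2023 to 3576 CPM for crystal cells, 1129 to 1318 against 2638 to 2816 CPM for prohemocytes and 920 to 1196 against 1868 to 2475 CPM for plasmatocytes, and their part in the levels of tau was not tested.

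The pooled tau level of infested glands, from 22 reads, was 7.69-fold a floor of 3 counts over the infested 96 h blood group. In normal larvae the gland level, from 50 reads, was 6.15-fold the floor of the 96 h blood group. These ratios leave out the counting error of the gland reads, so they are not strict lower bounds. In the Illumina libraries, 1 per condition, tau had 5.66 TPM in infested glands and 1.09 TPM in infested 96 h blood, 5.19-fold. The ratios are given with no test, because tau passed the filter on low counts through the gland groups alone. The 8 neuronal markers listed, elav among them, summed to 0 to 11.3 CPM in infested and 10.6 to 29.6 CPM in normal glands. In 96 h blood they summed to 20.7 to 37.6 CPM in infested and 25.3 to 31.7 CPM in normal larvae. Ring gland markers summed to 68.2 to 101.9 CPM in infested and 58.5 to 72.4 CPM in normal glands. In 96 h blood they were at 0 to 0.599 CPM in infested and 0 CPM in normal larvae. Heart markers summed to 45.0 to 75.7 CPM in infested and at least 91.3 CPM in normal glands. In 96 h blood they were at 4.44 to 9.58 and 0 to 10.6 CPM. Prohemocyte markers were at 286 to 332 and 180 to 194 CPM there. The part of these sets in the tissue difference of tau was not tested. Reads of RpS10a, which lies inside tau on the opposite strand, and of tau may not have been kept apart.

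The futsch gene (FBgn0259108, X, 1409069 to 1453686, plus strand), for the fly relative of the neuronal protein MAP1B, had 0 to 6 reads per library and did not pass the filter on low counts. Its end overlaps Gr2a on the same strand, and their reads may not have been kept apart. With so few reads, differences in futsch were not tested.

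Of the 6 members that passed the filter, tau only through the lymph gland groups, edgeR called 5 in 120 h blood, Eb1, shot, Jupiter, Lis-1 and chb, all higher with infestation, against 19.4% of all genes tested. In 96 h blood 2 were called, Eb1 and Jupiter, against 4.97% of all genes, and in lymph glands 1, Eb1, against 5.13%. Because earlier results of the same samples were known when the genes were chosen, nothing follows from these counts.

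From 96 h to 120 h in infested blood the same 5 genes rose, against 24.4% of genes called: Eb1 by 1.62 ± 0.13, shot by 1.93 ± 0.30, Jupiter by 1.45 ± 0.15, chb by 0.88 ± 0.20 and Lis-1 by 0.60 ± 0.15 on the log2 scale. The largest adjusted p among them was 0.00681, for Lis-1 (edgeR), and Lis-1 did not pass without the filter (adjusted p = 0.0710). With blood replicates 2 and 3 summed neither Lis-1 (adjusted p = 0.0568) nor chb (adjusted p = 0.0691) passed (edgeR). These comparisons share the infested 120 h libraries with the infestation comparison above. In normal blood 1 of the 6 was called, Jupiter, against 4.23% of genes. Between tissues at 96 h, Eb1 (0.57 ± 0.13) and Jupiter (1.00 ± 0.16) were higher in blood than in glands of infested larvae, where 11.1% of genes were called; Eb1 missed the threshold without the filter (adjusted p = 0.0852, edgeR) and with blood replicates 2 and 3 summed (adjusted p = 0.102, edgeR). In normal larvae edgeR called 0 of the 5 members other than tau, with 0 at an unadjusted p under 0.05 and 0 called by DESeq2, against 7.52% of genes. The tests of a different infestation effect called 0 members between tissues, where edgeR had 2 at an unadjusted p under 0.05 and DESeq2 called 0, against 0.283% of genes, and 2, Eb1 and chb, between ages, against 1.99%.

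**Figure D2:**
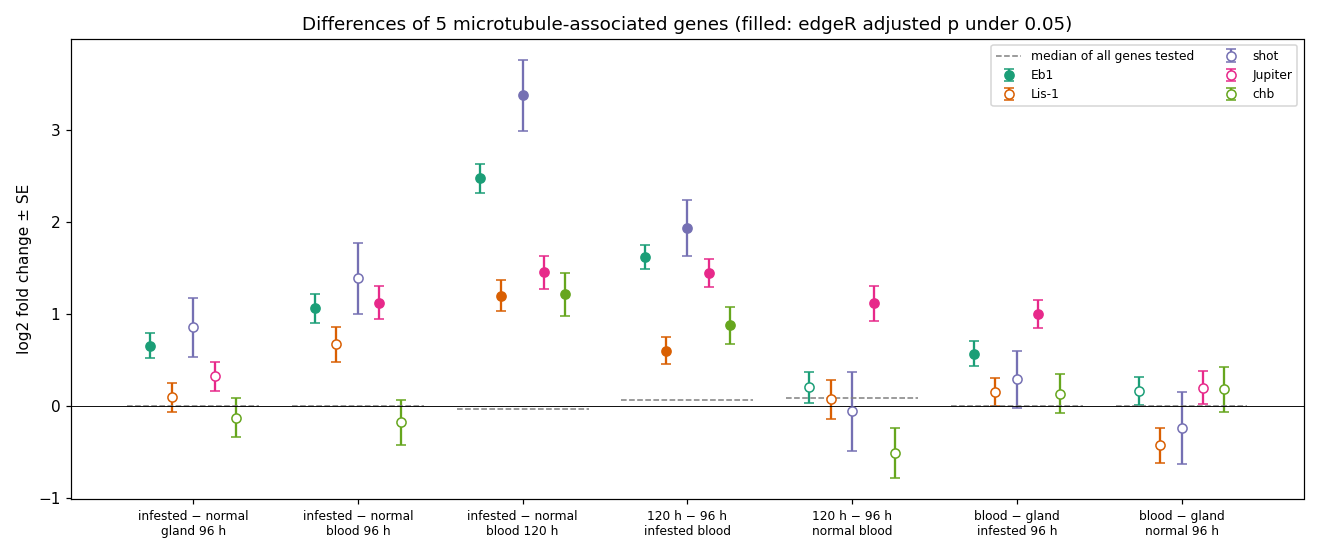
Log2 fold change ± SE (y axis) of Eb1, Lis-1, shot, Jupiter and chb in 7 comparisons (x axis); filled points have an edgeR adjusted p under 0.05 and dashed lines are medians of all genes tested. In 120 h blood all 5 points are filled and lie between 1.20 and 3.37, and in normal blood across age Jupiter alone is filled.

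Across the 16 libraries Eb1 followed Jupiter (Pearson r = 0.92 of log2 CPM), shot (r = 0.91) and Lis-1 (r = 0.89), and tau followed none of them, with r between -0.45 and 0.10. These values have no test, and the points share libraries and groups. The genes most like Eb1 among all tested were Galphai (r = 0.99), a G protein subunit, Ilk (r = 0.98), the integrin-linked kinase, and Or46a (r = 0.98). Jupiter ran closest to Arpc1, a subunit of the actin-nucleating Arp2/3 complex, CG11686 and Chmp1 (r = 0.98 each). Closest to shot were asRNA:CR44972 (r = 0.98), promL and aru (r = 0.95 each). Lis-1 was most like CG44325, Rhp and CG44085 (r = 0.93 each), chb like drongo (r = 0.89), CG4520 (r = 0.88) and CG4218 (r = 0.87), and tau like IM18 (r = 0.95), sog and shakB (r = 0.94 each).

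Isoform use could be tested for Eb1, Jupiter and Lis-1. Of the reads counted to a gene in a library, the transcript tables gave a median of 87.5% to Eb1 transcripts, 86.7% to Jupiter and 84.1% to Lis-1, but 0% to shot and tau and 66.7% to chb, so nanopore isoform shares of shot and tau cannot be given. Of chb, chb-RA held a mean of 96.3 ± 6.36% in infested and 96.2 ± 5.30% in normal 120 h blood (SD) and 100% in the other groups. For normal 96 h blood that is replicate 2 alone, with 10.3 estimated counts, because replicate 3 had 29 reads but no transcript count. Shares below are percentages of the transcript counts of a gene.

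Eb1 transcripts start at 4 places. Eb1-RB, the leading one, starts at 6749227, Eb1-RD at 6749516, Eb1-RG at 6751644 and Eb1-RA at 6752069, and these 4 share a coding sequence of 291 codons. Eb1-RG, whose 3′ end also reaches further, to 6756300, made up 16.6, 9.38 and 10.1% of Eb1 in infested 120 h blood, against 1.36 and 0% in normal blood. It made up 3.59, 4.31 and 6.41% in infested 96 h blood, against 0% in both normal libraries, and 3.26, 0 and 2.70% in infested glands, against 0% in the 3 normal ones. Every infested nanopore library but 1 held it, and every normal library but 1 of the common kit lacked it. The Illumina libraries, by the authors' deposited percentages, held it in normal blood too. There it made up 1.58% in normal and 2.57% in infested 96 h blood. At 120 h it made up 2.02% and 4.85%, and in infested glands 0.91%. The highest share, 16.6%, was in replicate 1 of infested 120 h blood, the library of that group with the high fat body and muscle sums, where glia genes too were at 177 CPM against 68.8 and 75.3 CPM in replicates 2 and 3. The end of Eb1-RG overlaps the 3′ end of CG3420, a gene of the opposite strand that begins at position 6756296, so a few bases there may share reads. The counts behind 0% were small: the normal 96 h blood libraries had 62.8 and 101 estimated counts of Eb1-RB.

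Eb1-RB made up 66.4 ± 5.06% in infested and 80.9 ± 0.54% in normal 120 h blood (SD). Of the alternatives with another coding sequence, Eb1-RE (290 codons) had 10.4 ± 1.63% and 12.6 ± 0.23%. Usage of Eb1 transcripts differed with infestation in 120 h blood (adjusted p = 0.00197, diffSpliceDGE F test of edgeR over 1609 genes, 1.80% of them called) and in 96 h blood (adjusted p = 0.0102, 1.24% called), and between infested blood of 120 h and of 96 h (adjusted p = 8.07e-04, 1.49% called). In lymph glands it did not pass (adjusted p = 0.0819, 0.373% called). Of single transcripts, Eb1-RG passed in 120 h blood, with a log2 relative use of 2.33 (adjusted p = 0.00213, edgeR), and Eb1-RA passed with age in infested blood (adjusted p = 0.00405, edgeR). Eb1-RA made up 3.16, 1.99 and 2.47% in infested 120 h blood and was listed at 0% in the 3 infested 96 h libraries, while normal 120 h blood had 1.73 and 3.86%. The 96 h call was lost without replicate 3 of normal blood (adjusted p = 0.803) and the 120 h call without replicate 3 of normal blood (adjusted p = 0.0878).

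Jupiter-RD, which starts at 11619906, made up 88.6 ± 4.24% of Jupiter in infested and 97.2 ± 1.68% in normal 120 h blood, and 97.6 ± 0.50% in infested 96 h blood. Jupiter-RC, from a start at 11604754, made up 8.46, 4.07 and 4.04% in infested 120 h blood, against 1.56 and 0% in normal 120 h blood. In infested 96 h blood it made up 0, 0 and 1.43%, so the 120 h libraries of infested larvae stood above all others, the highest again being replicate 1. Jupiter usage changed with age in infested blood (adjusted p = 0.0201, edgeR), with Jupiter-RC at a log2 relative use of 2.76 (adjusted p = 0.0328), and not detectably with infestation in 120 h blood (adjusted p = 0.230). The age call was lost without infested 120 h replicate 1 (adjusted p = 0.201) or 2 (0.0652) or infested 96 h replicate 2 (0.348).

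**Figure D3:**
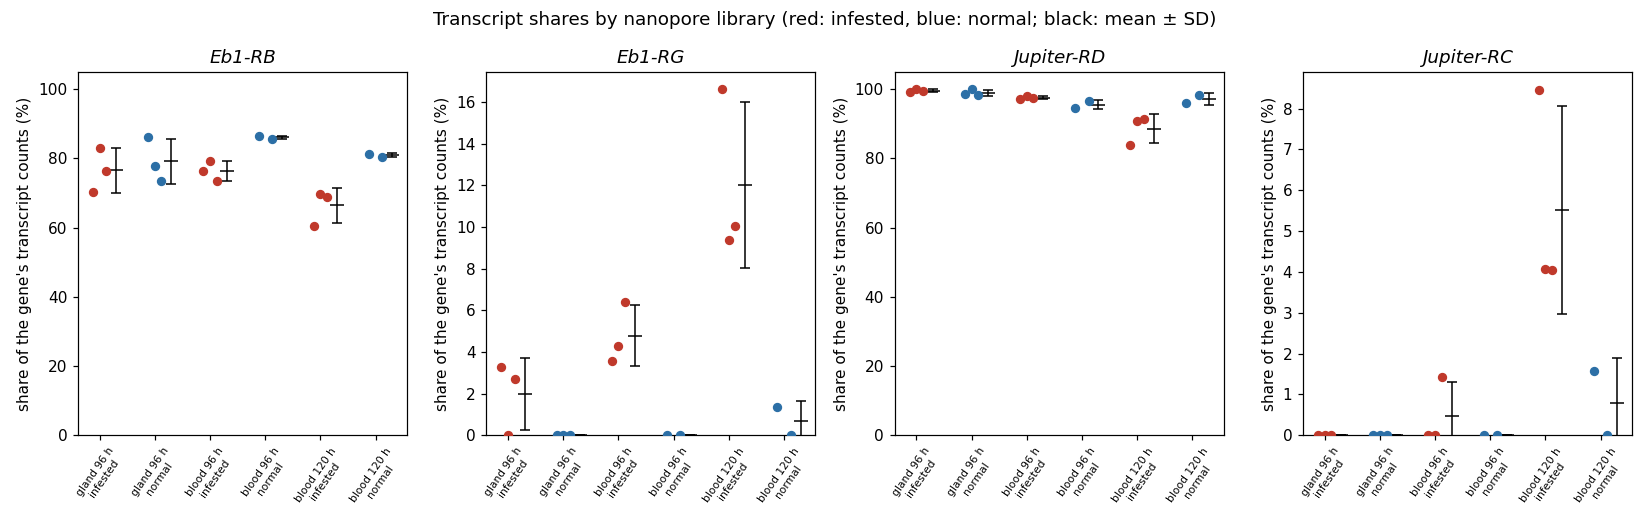
Share in percent (y axis) of the transcript counts of Eb1 held by Eb1-RB and Eb1-RG, and of Jupiter by Jupiter-RD and Jupiter-RC, in each nanopore library by group (x axis), with mean ± SD in black. Eb1-RG reached 9.38 to 16.6% and Jupiter-RC 4.04 to 8.46% in infested 120 h blood; the scales of the panels differ.

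Of the Lis-1 transcripts, the 4 in the Ensembl annotation share 1 coding sequence of 411 codons. The leading transcript in the deposited tables was another one, Lis-1-BIGFLY-AltEnd-1, which has no entry there. It made up 48.5 ± 2.96% of Lis-1 in infested and 43.8 ± 2.36% in normal 120 h blood, and 49.0 ± 4.71% in infested and 77.8 ± 16.5% in normal 96 h blood (SD). Lis-1-BIGFLY-AltEnd-2 made up 13.1 ± 2.44% in infested and 11.6 ± 5.84% in normal 120 h blood. Usage was called with infestation in 96 h blood (adjusted p = 0.0217, edgeR), with age in normal blood (adjusted p = 0.0209, 1.18% of genes called) and between tissues in normal larvae (adjusted p = 0.0375, 0.684% called). All of these involve normal 96 h blood, where Lis-1-RA was listed at 0% in both libraries, against 36.7 to 43.4% in infested 96 h blood, and where the gene had 20 and 27 reads. Each of the 3 calls was lost without either normal 96 h library, with adjusted p between 0.173 and 0.306. The Illumina libraries, by the authors' deposited percentages, went the other way, with Lis-1-RA at 4.86% in infested and 12.1% in normal 96 h blood.

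The Illumina libraries, without replicates and hence without a test, gave length-scaled levels in TPM, on which genes can be compared. In infested 120 h blood Jupiter had 1459 TPM, Eb1 1020.1, shot 286, Lis-1 94.4, chb 74.9, tau 2.74 and futsch 0.22. Infested 96 h blood had 655 TPM of Jupiter, 439.9 of Eb1, 176 of shot, 76.1 of Lis-1 and 59.2 of chb. Normal 96 h blood had 287 TPM of Jupiter, 197 of Eb1, 57.3 of Lis-1, 32.3 of chb and 20.5 of shot. Infested lymph glands had 327 TPM of Jupiter, 289.9 of Eb1, 91.8 of shot, 61.6 of Lis-1 and 48.0 of chb. The ranking of Jupiter and Eb1 above shot, and shot above Lis-1 and chb, held in all 3 infested libraries, while in both normal blood libraries shot was below Lis-1 and chb.

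At 96 h the TPM in infested blood was 8.59-fold that in normal blood for shot, 2.28-fold for Jupiter and 2.23-fold for Eb1. These 3 of the 6 members with at least 10 CPM were past a 2-fold change of CPM + 5, all higher, against 8.14% of genes. At 120 h, shot had 286 TPM in infested and 13.1 TPM in normal blood, 21.8-fold. At that age Eb1 had 1020.1 TPM in infested and 712 TPM in normal blood, 1.43-fold, and Jupiter 1459 and 1348 TPM, 1.08-fold, where the nanopore folds were 5.54 and 2.73. Of the 6 members 1 was more than 2-fold higher, shot, and 1 lower, tau, against 33.9% of genes. Lis-1 had 94.4 and 59.5 TPM and chb 74.9 and 46.4 TPM in infested and normal 120 h blood. Each of the 120 h comparisons rests on the library with male germline and ecdysone-induced genes, whose part in them was not tested.

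In that normal 120 h library tau had 12.7 TPM, against 0.91 TPM at 96 h in normal blood, and 2.74 TPM was measured in infested 120 h blood, whereas the nanopore libraries of normal 120 h blood had no tau read. Jupiter-RB there made up 16.4% of Jupiter, against 2.73% in infested 120 h blood, and Eb1-RA 7.74% of Eb1, against 1.01%. The nanopore libraries did not show this, with Jupiter-RB at 1.79 to 4.41% in infested and 1.46 to 1.59% in normal 120 h blood. Jupiter-RC was at 5.61% in infested 120 h blood and 0.38% in normal, and Eb1-RG at 4.85% and 2.02%, both highest in the infested 120 h library among the 5. Across age in infested blood 2 members passed 2-fold, Eb1 at 2.32-fold and Jupiter at 2.23-fold of TPM, against 10.7% of genes, in normal blood 3, Eb1, Jupiter and tau, were higher at 120 h, against 38.1%, and in blood against gland of infested larvae 1 of 7, tau, was lower, against 8.32%.

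Short reads also gave shares of shot transcripts, by the authors' deposited percentages. In infested 120 h blood shot-RE, which starts at 13925503, made up 59.6%, shot-RAB, from 13897701, 32.9% and shot-RH, from 13910946, 6.92%. In infested 96 h blood they were at 49.0, 35.4 and 13.6%, against 15.6, 49.3 and 27.4% in normal 96 h blood. Infested lymph glands had 24.8, 44.0 and 30.4%, and normal 120 h blood 39.6, 50.6 and 7.34%. The share of shot-RE was thus higher in the infested library at both ages, with 1 library on each side. As annotated, shot-RH codes for 8805 codons, shot-RE for 5201 and shot-RAB for 4100.

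**Figure D4:**
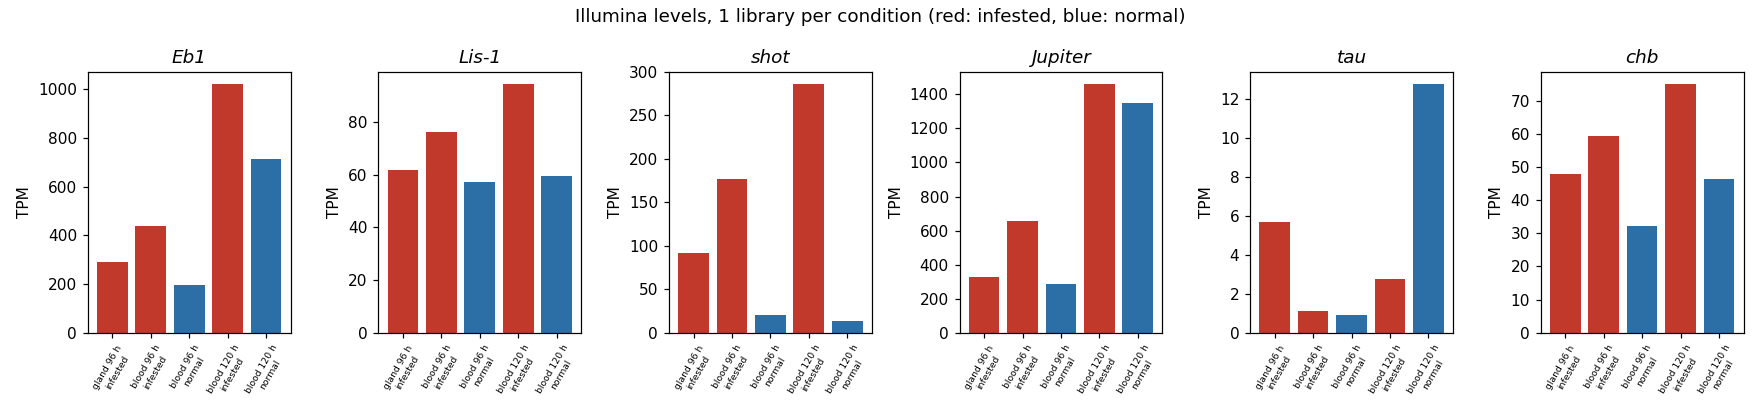
Illumina levels in TPM (y axis, from 0, its scale differing by panel) of 6 genes in 5 conditions (x axis), 1 library each, infested in red and normal in blue. Shot reached 286 TPM in infested 120 h blood against 13.1 TPM in normal blood, while Jupiter was at 1459 and 1348 TPM.

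The nanopore library of normal lymph glands at 120 h held 6223590 gene counts. On plain CPM with exact 95% Poisson intervals, which cover counting error only, Jupiter was at 344 (329.6 to 359), Eb1 at 90.1 (82.8 to 97.9), shot at 49.97 (44.6 to 55.8), Lis-1 at 21.0 (17.6 to 24.98), chb at 20.9 (17.5 to 24.8) and tau at 11.4 (8.91 to 14.4) CPM. Its 1 futsch read gives 0.161 CPM. It was prepared with another kit, so kit and age cannot be told apart and no comparison was made. Eb1-RG made up 3.05% of Eb1 there (95% Wilson interval 1.79 to 4.97%).

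Of 99 other microtubule genes in 5 groups, listed with earlier results known, 80 were tested. In 120 h blood 16 were higher and 0 lower with infestation: 7 of 23 plus-end and lattice binding genes, 4 of 11 severing, tubulin cofactor and modification genes and 5 of 14 kinesins, but none of 18 dynein and dynactin or 14 nucleation and augmin genes. The share called, 20% of the 80, was near the 19.4% of all genes. The median log2 fold change of the 80 was 0.34, against -0.03 for all genes. Klp98A, a kinesin that moves along microtubules towards the plus end, had 134 ± 2.80 CPM in infested and 20.3 ± 3.21 CPM in normal 120 h blood, a log2 fold change of 2.68 ± 0.22 (adjusted p = 5.91e-07, edgeR). Klc, the kinesin light chain, rose by 1.15 ± 0.19 and Klp64D, a subunit of kinesin-2, by 1.79 ± 0.36. Over the alternatives the count of 16 ran between 5 and 24. Among the cofactors that fold tubulin, Tbca rose by 1.04 ± 0.17, Tbcd by 1.69 ± 0.33 and Tbcb by 0.90 ± 0.20.

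In 96 h blood 2 of the 80 were called, both higher: Tbca by 0.83 ± 0.17 and Klp98A by 1.06 ± 0.25. In lymph glands 2 were called, Klc by 0.66 ± 0.17 and Tbcb by 0.68 ± 0.19. Each count is 2.5% of the list, below the 4.97% and 5.13% of all genes called in these comparisons. From 96 h to 120 h in infested blood 19 rose and 2 fell, 26.2% of the list, near the 24.4% of all genes, with Klp98A (1.55 ± 0.17), stai (2.29 ± 0.38), the fly stathmin, which binds free tubulin, and Tbca (0.85 ± 0.15) having the smallest p. In normal blood the edgeR count was 0, with 7 at an unadjusted p under 0.05 and 1 called by DESeq2. Between blood and lymph gland of normal larvae Klc (0.93 ± 0.19) and Tbce (1.75 ± 0.41) were higher and Map205 was lower (-1.08 ± 0.30) in blood, and in infested larvae Tbca (0.60 ± 0.15) and msd1 (0.58 ± 0.18) were higher in blood. These are 3.75% and 2.5% of the list, below the 7.52% and 11.1% of all genes. These small counts were unstable: with 1 library left out, 0 to 3 of the 80 were called in 96 h blood, 0 to 2 in lymph glands and 0 to 2 between tissues of infested larvae. Klp98A was the 1 gene of the list whose infestation effect differed between ages in blood, by 1.62 ± 0.34 (adjusted p = 0.0235, edgeR).

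**Figure D5:**
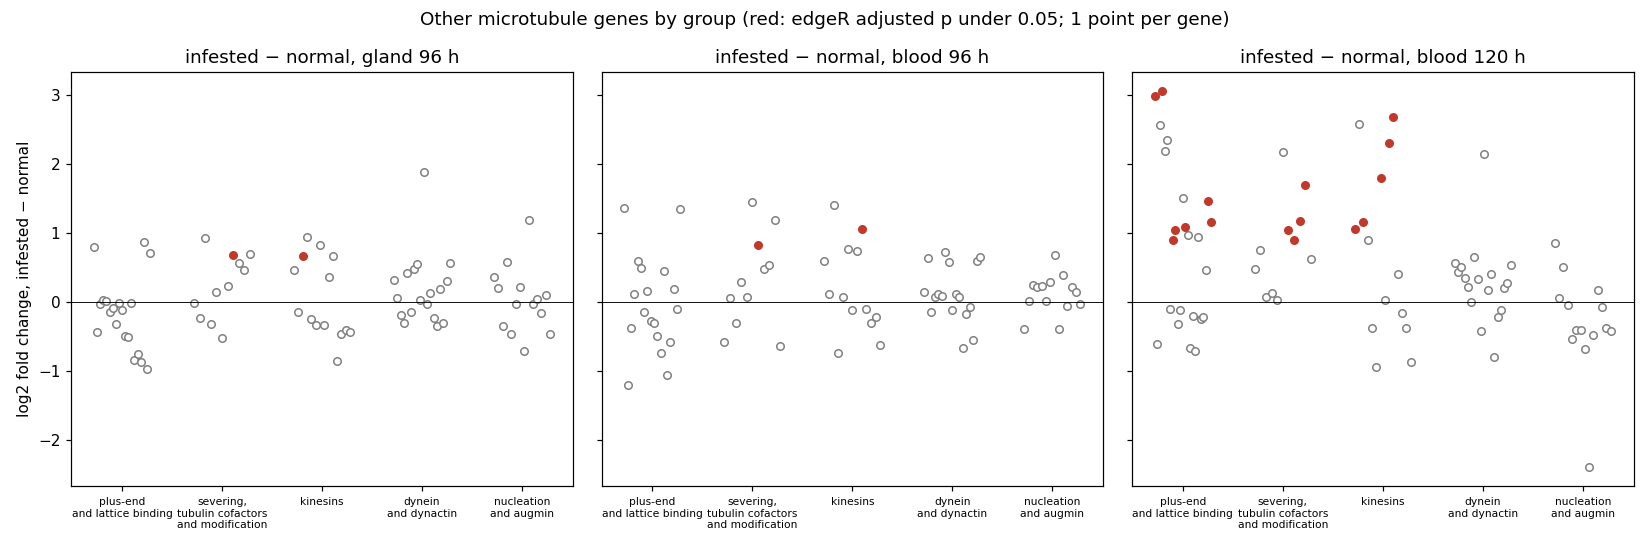
Log2 fold change, infested minus normal (y axis), of the other microtubule genes by group (x axis) in lymph gland, 96 h blood and 120 h blood, 1 point per gene and red where the edgeR adjusted p is under 0.05; 4, 7 and 0 genes with a group without reads are left out. In 120 h blood 16 points are red, all above 0, and none is in the dynein or nucleation groups.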

How the data were processed

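RNA was measured by nanopore cDNA sequencing (17 libraries) and by Illumina sequencing (5 libraries) of pooled larvae. For nanopore the authors deposited raw counts for each gene and estimated counts for each transcript, and expected counts, TPM, FPKM (not used here) and isoform percentages for Illumina. The submitters' processing notes name minimap2 2.17-r941 and StringTie 2.1.3, with RSEM 1.3.1, FastQC 0.11.8 and STAR 2.5.3a besides. What each did, the build and any use of strand in counting is not given in the sources used here, so reads of overlapping genes may not be kept apart. Reads ambiguous between genes made up 0.498 to 1.29% and reads outside genes 0.379 to 0.777% of a library, and both were left out. For the transcript counts, on which nanopore isoform shares and tests rest, ambiguous reads made up 22.3 to 27.8% of a library and were left out too. Gene places are from the Ensembl annotation of BDGP6.54, matched by identifier.

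The members, gene lists and tests were chosen with earlier results of these data known. Genes passing filterByExpr (7076 of 13721) were fitted in edgeR 4.0.16 (R 4.3.3) with TMM scaling, 16 libraries, 6 groups and no covariate, by the quasi-likelihood F test, with Benjamini-Hochberg adjustment over all tested genes and a threshold of 0.05. CPM values of the members and of the other microtubule genes in the nanopore libraries of the common kit are TMM-scaled. Marker sums, Illumina CPM and values of the 120 h lymph gland library are plain CPM, scaled to the library total alone. Isoform usage was tested with diffSpliceDGE on transcript counts rounded to whole numbers (8271 transcripts of 1609 genes). The code was tested on simulated data. Nothing in the labels says that replicates came from separate cultures or collections, so p-values measure the spread between these samples, which may be technical. Replicate libraries differed by more than sampling noise in every group, but unevenly. The chi-square per degree of freedom was 2.69 to 3.19 between blood replicates 2 and 3. Between blood replicate 1 and these it was 10.1 to 20.6, and between lymph gland replicates 6.15 to 19.5. Both normal blood groups held only replicates 2 and 3, so the normal side of each blood test was this closer pair. Summing replicates 2 and 3 treats them as 1 sample. Of the other microtubule genes, up to 6 called genes with the smallest p and at least 20 CPM are named per infestation comparison and up to 3 per other comparison. Isoforms with a mean nanopore share of at least 10% are named by rule, apart from those of shot, tau and futsch, which had few transcript counts. Below that share, Eb1-RA, Eb1-RD, Jupiter-RC, Jupiter-RB, chb-RC and Lis-1-RG were named after their values were seen. For each member the 3 genes with the highest Pearson r are named.

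Replicate numbers were checked for pairing by correlating the deviations of same-numbered libraries from their group means. Between infested blood of 120 h and 96 h all 3 pairs were above 0.1 (0.29, 0.17 and 0.13), so these numbers were taken as paired, a reading that comes from the data and not the labels. Alternatives were DESeq2 1.42.0, other size factors, no filter, a replicate block, summed or left-out libraries and, chosen after seeing the data, both blood libraries numbered 1 left out.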

Additional observations from a re-analysis of the deposited data

Results flagged for a closer look

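The effect of infestation in blood differed between 120 h and 96 h for 3 of the genes described, by an edgeR test of the difference itself with Benjamini-Hochberg adjustment, where 1.99% of all genes were called. None of the 3 calls held with blood replicates 2 and 3 summed (adjusted p = 0.311 for Eb1, 0.461 for chb and 0.404 for Klp98A, edgeR). For Eb1 the log2 fold change was larger at 120 h by 1.41 (adjusted p = 0.00391, edgeR), with all 3 infested libraries above both normal ones at each age, a call lost without replicate 3 of normal 96 h blood (adjusted p = 0.0533, edgeR). For chb it was larger by 1.39 (adjusted p = 0.0492, edgeR), with the libraries of the groups apart at 120 h and overlapping at 96 h. That call was kept in 2 of the 10 fits that left out 1 library and was lost with the replicate number as a block (adjusted p = 0.0537, edgeR). For Klp98A it was larger by 1.62 (adjusted p = 0.0235, edgeR), a call kept in 4 of the 10 fits that left out 1 library. Lamellocyte marker sums were higher in infested blood at 120 h than at 96 h, and their part in these differences was not tested. The Illumina libraries, 1 per condition, did not show a larger effect at 120 h for chb or Eb1. There the TPM of chb in infested blood was 1.83-fold that in normal blood at 96 h and 1.62-fold at 120 h. For Eb1 the folds were 2.23 and 1.43. The 120 h folds rest on the normal library with male germline and ecdysone-induced genes.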

How the results depend on the processing

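With blood replicates 2 and 3 summed, 0 members were called across age in normal blood, with infestation in 96 h blood, in lymph glands and for the difference between ages, where the reported counts were 1, 2, 1 and 2. Without the filter 2 were called in lymph glands, and with all blood replicates 1 left out 1 was called for the difference between tissues. The Simes method gave 1 member with changed isoform usage across age in infested blood, and Simes and all transcripts with a count both gave 0 across age in normal blood, in 96 h blood and between tissues of normal larvae. The fits were also run leaving out 1 library at a time. With a library of a group of 3 left out, members called other than tau stayed at 5 in 120 h blood and across age in infested blood. They stayed at 2 between tissues of infested larvae, and at 0 between tissues of normal larvae and for the difference between tissues. Their number ran from 2 to 3 in 96 h blood, 1 to 2 in lymph glands and 1 to 3 for the difference between ages. Calls of tau came and went and are left out, because it passed the filter through the gland groups alone. The isoform counts that follow are over all fits without 1 library. Isoform counts ran from 1 to 2 across age in infested blood, 0 to 2 in 96 h blood, 0 to 1 in 120 h blood, in lymph glands, across age in normal blood and between tissues of normal larvae. A lone sample left in a group was assumed to vary like the others.

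Counts over all genes moved by more than 1.5 times: over the alternatives without left-out libraries from 437 to 1591 in 120 h blood (1375 reported), 71 to 744 in 96 h blood (352), 200 to 636 in lymph glands (363), 799 to 2706 across age in infested blood (1730), 26 to 711 in normal blood (299), 430 to 1025 between tissues of infested larvae (783) and 214 to 893 of normal larvae (532). No direction that was called reversed. The median of all genes in 120 h blood was 0.09 without the filter and -0.03 with it. The replicate block left the number of members called at 5 in 120 h blood, 5 across age in infested blood, 2 in 96 h blood and 1 in lymph glands; it ended the call of chb for the difference between ages (adjusted p = 0.0537, edgeR) and made that of shot (adjusted p = 0.0275, edgeR). In the other comparisons the samples share only a number, with correlations between -0.10 and 0.18. Depth limits tau and futsch most, at up to 18 and 6 reads in a library of the common kit.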

Other observations

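In the Illumina libraries, by the authors' deposited percentages, chb-RC made up 25.5% of chb in infested and 54.1% in normal 120 h blood, and 0% in infested and 0.14% in normal 96 h blood. The nanopore libraries had chb-RC at 11.0, 0 and 0% in infested and 7.5 and 0% in normal 120 h blood. It starts at position 21177861 of chromosome 3L, and the 3 annotated chb transcripts share a coding sequence of 1491 codons. Lis-1-RG has the annotated 3′ end, at 16183991, nearest to the start of the gene. In the Illumina libraries it made up 2.91% of Lis-1 in infested and 32.2% in normal 120 h blood. Lis-1-BIGFLY-AltEnd-2, also short at 1496 bases against 1675, went the other way there, at 35.1% and 0%. Nanopore libraries of that age had Lis-1-RG at 0% in the 3 infested and 0 and 3.92% in the 2 normal ones. How reads were divided between these transcripts was not tested. The normal 120 h library in these comparisons is the one with male germline and ecdysone-induced genes, with bol, a gene of male germ cells, at 210 CPM and Hr4, an ecdysone-induced receptor, at 88.6 CPM. Each condition had 1 library, so no test was possible.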
